A study of Mus musculus with 15 samples.

Results

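Genomic imprinting restricts transcription of certain genes to the copy inherited from the mother or to the copy inherited from the father. The 46 imprinted genes described here were taken by symbol from a gene count table of differentiated mouse embryonic stem cells, and all 46 matched 1 of its 24034 gene lines. A member was kept when at least 10 counts were present in at least 3 of the 15 libraries, which left 41. The same 41 passed the low-count filter of the test across all genes, in which 13662 genes were tested. The members were chosen by name and not by their levels. They fall into clusters: H19 and Igf2; Kcnq1ot1, Kcnq1, Cdkn1c, Phlda2, Slc22a18, Osbpl5, Cd81, Tssc4 and Ascl2; Igf2r, Airn and Slc22a3; Dlk1, Meg3, Rian and Mirg; Peg3, Usp29 and Zim1; Peg10, Sgce, Ppp1r9a, Asb4 and Calcr; Grb10 and Ddc; Snrpn, Ndn, Magel2, Peg12 and Ube3a; Nnat and Blcap; Zrsr1 and Commd1. Mest, Plagl1, Gnas, Slc38a4, Trappc9, Nap1l5, Rasgrf1, Inpp5f and Impact were the remaining members.

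The study sorted cells by reporters built from regulatory DNA of Endoglin (Eng), a co-receptor for transforming growth factor beta ligands, and profiled 5 fractions by RNA sequencing in 3 libraries each. Of these, 2 came from a line whose construct joined the Eng promoter to the enhancers at -8, +7 and +9 kb. They were FLK1+ cells, FLK1 being the VEGF receptor encoded by Kdr, without LacZ activity (LacZ-) or with it (LacZ+), and the series' design text places them in mesoderm. The other 3, labelled HEI, came from a second line, whose construct held only the -8 kb enhancer beside the promoter. They carried surface ENG without (ENG+FDG-) or with (ENG+FDG+) turnover of FDG, a fluorogenic substrate of the LacZ enzyme, or FDG turnover without ENG (ENG-FDG+). The design text describes the fraction marked by that construct as hemogenic endothelium, endothelium that gives rise to blood. Whether each line was 1 clone, the strain, the culture times and whether replicates came from separate cultures are not stated in the labels or the design text, so p-values measure only the spread between these libraries. Reporter line and stage differed together between FLK1+ and HEI cells and cannot be told apart.

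Most imprinted genes lie in clusters governed by a control region whose DNA methylation is set in one parent's germline. The zinc finger protein ZFP57 and its partner TRIM28 keep that methylation through early divisions, and at several clusters a long noncoding RNA from one parental copy accompanies silencing of its neighbours on the same copy. Many imprinted genes act on fetal and placental growth: Igf2 encodes a growth factor, Igf2r a receptor that clears it, and Cdkn1c, Phlda2, Grb10 and H19 restrain growth. Read counts per gene do not separate the parental copies, so no value below measures imprinting itself. Parental expression is named from general knowledge, and for some members it is restricted to placenta, brain or certain isoforms.

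Start-site sequences are shown for 4 members whose levels are described below, and no test below uses them. Each is the 250 bases before the RefSeq start site (GRCm38.p6, the build of the mm10 genome), written 5′ to 3′ along the gene's own strand, with any copy of TGCCGC on either strand in capitals, the hexamer that ZFP57 reads when methylated. Where RefSeq gives a gene several start sites, as for Mest and Meg3, the window with the most copies is shown. Mest, Plagl1 and Meg3 hold the hexamer there and Phlda2 does not.
Mest, chr6:30737800-30738049, plus strand: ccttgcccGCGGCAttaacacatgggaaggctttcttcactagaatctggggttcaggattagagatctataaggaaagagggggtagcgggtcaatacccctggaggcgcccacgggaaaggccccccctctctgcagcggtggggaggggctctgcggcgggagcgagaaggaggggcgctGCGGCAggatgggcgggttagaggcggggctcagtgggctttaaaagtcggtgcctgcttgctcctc
Plagl1, chr10:13090582-13090831, plus strand: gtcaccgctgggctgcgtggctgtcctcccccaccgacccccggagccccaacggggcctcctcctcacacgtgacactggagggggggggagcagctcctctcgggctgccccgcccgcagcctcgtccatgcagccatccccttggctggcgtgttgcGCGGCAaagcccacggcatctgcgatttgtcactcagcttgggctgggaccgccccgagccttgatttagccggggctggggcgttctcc
Meg3, chr12:109540746-109540995, plus strand: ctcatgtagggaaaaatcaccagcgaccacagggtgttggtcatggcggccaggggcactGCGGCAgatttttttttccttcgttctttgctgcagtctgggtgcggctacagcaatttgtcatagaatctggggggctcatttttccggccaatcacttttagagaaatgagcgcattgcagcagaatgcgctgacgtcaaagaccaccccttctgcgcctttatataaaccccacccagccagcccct
Phlda2, chr7:143502525-143502774, minus strand: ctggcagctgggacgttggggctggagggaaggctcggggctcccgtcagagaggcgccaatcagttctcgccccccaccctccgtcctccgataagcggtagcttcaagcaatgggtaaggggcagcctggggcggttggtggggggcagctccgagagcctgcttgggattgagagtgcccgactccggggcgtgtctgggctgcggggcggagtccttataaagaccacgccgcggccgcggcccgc
Of the 46 members, 39 matched a RefSeq window of 250 bases before to 50 bases after a start site. TGCCGC stood on either strand in a window of 12 of these 39 members (30.8%), namely Calcr, Commd1, Grb10, Igf2, Meg3, Mest, Nap1l5, Nnat, Osbpl5, Plagl1, Snrpn and Zim1, and in 13.1% of 27025 genes with a window. GCCATNTT, the core of the YY1 motif, stood in 2 of the 39 (5.13%), Slc38a4 and Ube3a, against 6.96% of all genes. Both motifs were searched on both strands and do not overlap each other as words. A gene was counted when any of its windows held the motif, and members such as Igf2, Gnas and Snrpn have several windows. The shares of members and of all genes were not matched for the number of windows or for GC content. Over all 32851 single windows TGCCGC stood in 11.6%. These matches describe letters in a window and give no evidence of binding.

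The libraries held 9673396 to 16337785 counts on the gene lines kept. The 5 libraries numbered replicate 1 stood apart from replicates 2 and 3 in all groups. With the replicate number as a block in the model, 29 of 41 members differed between replicate 1 and the other two (18 higher, 11 lower in replicate 1) against a background of 70.3% of genes tested. The share of counts on Rn45s, a ribosomal RNA precursor, was 1.4% to 3.56% in replicate 1 and 0.524% to 0.784% in the others. Among the members, Nnat (3.801 ± 0.62 SE, log2), Slc22a18 (3.05 ± 0.63), Phlda2 (2.56 ± 0.27) and Tssc4 (2.32 ± 0.13) were higher in replicate 1. Ube3a (-1.902 ± 0.12) and Kcnq1ot1 (-1.28 ± 0.15) were lower there. Of the members named as maternally expressed, 13 of 19 tested were higher in replicate 1 and 2 lower, and of the paternally expressed, 4 of 18 were higher and 8 lower, against 38.6% higher and 31.7% lower of all genes. Results are therefore given over all libraries, with the block, and in replicates 2 and 3 alone. The summed level of 9 endothelial marker genes was 387 to 784 CPM in FLK1+ cells. It was 4212 to 6649 CPM in ENG+ HEI cells and 2203 to 2627 CPM in ENG-FDG+ HEI cells. All 9 passed the test as higher in HEI cells. They include Eng and Kdr, whose proteins ENG and FLK1 were used in the sorts, so these levels do not check the labels independently. Early blood markers, 6 genes, summed to 151 to 200 CPM in FLK1+ cells. In HEI cells that sum was 86.8 to 121 CPM with ENG (ENG+) and 410 to 514 CPM without it (ENG-FDG+).

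Members took 1.299% to 2.22% of all counts in FLK1+ libraries, 3.16% to 3.62% in ENG+ HEI libraries and 1.96% to 2.76% in ENG-FDG+ HEI libraries. CPM below means counts scaled to a library total of 1e6 after scaling by edgeR's trimmed mean of M-values (TMM), and 3 values in a row are replicates 1, 2 and 3. Peg10, a gene derived from a retrotransposon and needed for placenta formation, took the most counts of any member in 13 libraries, and H19, a noncoding RNA, in the other 2, which were replicate 1 of ENG+FDG+ and of ENG-FDG+ HEI cells. Per kilobase of exon the order differed with stage. In FLK1+ cells Peg10 led (median 1224 CPM per kb), followed by Mest (483) and H19 (383). Mest and H19 overlapped in range there, at 209.9 to 673 and 74.9 to 611 CPM per kb. Peg10 led in all 6 FLK1+ libraries. Among ENG+ HEI libraries H19 led in 4 and Peg10 in 2, both replicate 3, with medians of 2001 CPM per kb for H19, 1586 for Peg10 and 1586 for Mest. Peg10 lay above Mest there in replicates 2 and 3 and below it in replicate 1. In ENG-FDG+ HEI cells H19 led in all 3 libraries (median 1349 CPM per kb), with Mest at 1096 and Peg10 at 875, and the ranges of Mest and Peg10 overlapped.

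**Figure D1:**
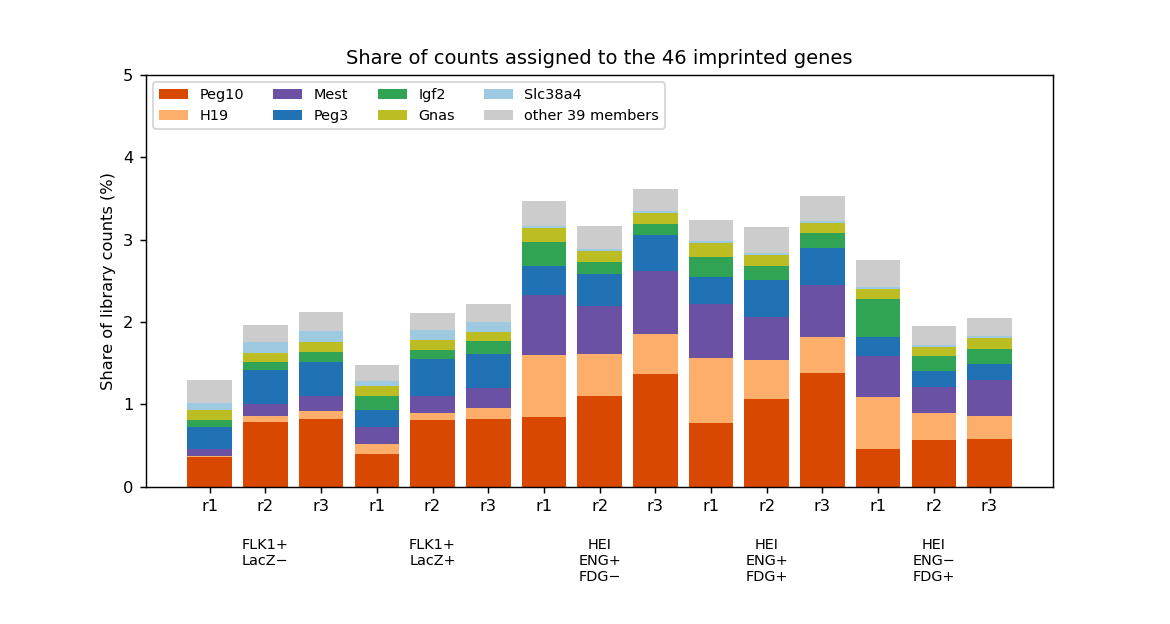
Percent of each library's counts assigned to the 46 imprinted genes (y axis), for 15 libraries (x axis: 5 groups, replicates r1 to r3), with 7 members drawn as stacked colours and the other members in grey. ENG+ HEI libraries reach 3.16% to 3.62%, above every FLK1+ library (at most 2.22%).

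The 5 members under the count rule were Kcnq1, a potassium channel gene, Ascl2, a transcription factor of the trophoblast lineage, Slc22a3, an organic cation transporter, Snrpn, a splicing protein gene, and Rasgrf1, an exchange factor. Snrpn had 0 counts in all 15 libraries, which allows up to 0.184 to 0.31 CPM per library (3 counts of each total). Its annotated exons overlap those of Snurf, whose line held 1 to 12 counts, and how the counting treated reads shared by both is not given. Rasgrf1 reached at most 26 counts, in replicate 1 of ENG-FDG+ HEI cells.

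HEI cells differed from FLK1+ cells in 21 of the 41 tested members, against 37.3% of all genes. Plagl1 rose 15.02-fold and H19 5.95-fold, Igf2r 4.77-fold, Osbpl5 4.95-fold and Ddc 4.59-fold, and Phlda2 fell to near 0. The noncoding RNAs Meg3, Rian and Mirg fell together with their neighbour Dlk1. In the comparison of the mean of the 3 HEI groups with the mean of the 2 FLK1+ groups, edgeR's quasi-likelihood test called 21 of 41 members at an adjusted p under 0.05 (Benjamini-Hochberg over 13662 genes), against 37.3% of all genes. Of these, 12 were higher (background 17.0%) and 9 lower (background 20.3%). The median log2 difference was 0.21 over the members and -0.11 over all genes tested. With the replicate block 31 members were called (19 higher, 12 lower, background 66.2%), and in replicates 2 and 3 alone 37 of 40 (22 higher, 15 lower, background 73.7%). All 21 calls were shared with both of those fits. DESeq2 called 20 members between the stages (12 higher, 8 lower, background 36.8%). The levels of the 2 stages did not overlap in any library for 11 members, against 18.2% of genes tested. Of the maternally expressed members 13 of 19 tested were called (6 higher, 7 lower), and of the paternally expressed 7 of 18 (5 higher, 2 lower). With the block the counts were 15 of 19 and 13 of 18, and in replicates 2 and 3 alone 17 of 18 and 16 of 18, so the shares lay closer together there. In sorted bulk RNA, fewer cells of a type and less RNA per cell cannot be told apart.

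**Figure D2:**
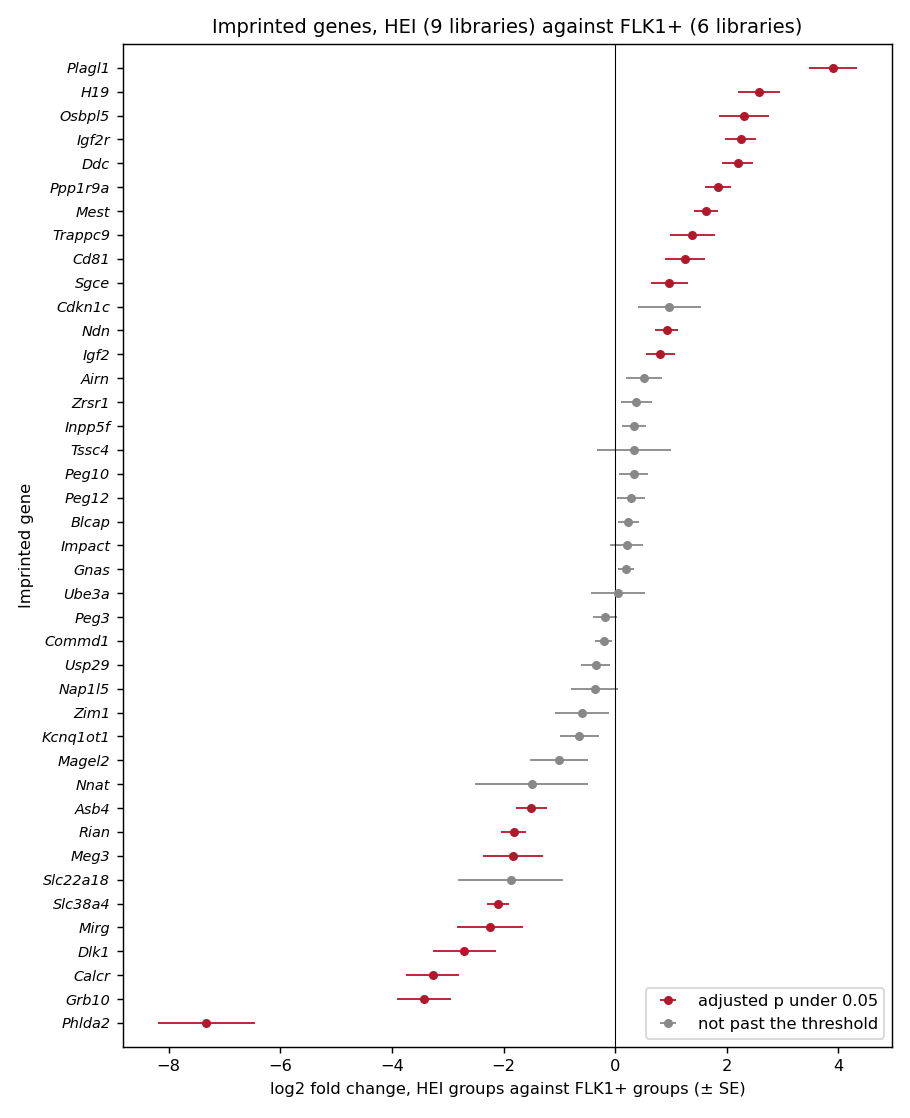
Log2 fold change of each of the 41 tested imprinted genes (y axis) between HEI and FLK1+ cells (x axis, bars ± SE), red where the adjusted p was under 0.05. The 21 red points lie on both sides, from Phlda2, the lowest, to Plagl1 at 3.91.

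Of the insulin-like growth factor system, H19, Igf2 and Igf2r rose and Grb10 fell. H19 (ENSMUSG00000000031.16, chromosome 7, 142575529 to 142578143, minus strand) is a spliced noncoding RNA transcribed from the maternal copy. H19 read 184, 683 and 1013 CPM in LacZ- FLK1+ cells and 1139, 874 and 1504 CPM in LacZ+ FLK1+ cells. HEI levels of H19 were 7427, 5019 and 4825 CPM (ENG+FDG-), 7821, 4607 and 4151 CPM (ENG+FDG+) and 6425, 3319 and 2758 CPM (ENG-FDG+). Every HEI library lay above every FLK1+ library, the difference was 2.57 ± 0.38 (SE, log2, adjusted p = 0.000158), and replicate 1 of LacZ- cells was the lowest of all. Igf2 (ENSMUSG00000048583.16, chromosome 7, 142650766 to 142666816, minus strand), the paternally expressed growth factor gene next to it, moved less. Igf2 read 905, 917 and 1235 CPM in LacZ- FLK1+ cells and 1636, 1234 and 1696 CPM in LacZ+ FLK1+ cells. HEI levels of Igf2 were 2807, 1516 and 1364 CPM (ENG+FDG-), 2420.4, 1639 and 1769 CPM (ENG+FDG+) and 4708, 1953 and 1826 CPM (ENG-FDG+). Igf2 rose by 0.81 ± 0.26 (adjusted p = 0.0267), with overlapping ranges and its highest level in replicate 1 of ENG-FDG+ cells. That call was lost without replicate 1 (0.77) or 2 (0.78) of LacZ- or replicate 2 of LacZ+ FLK1+ cells (0.75). In the annotation, 62.8% of its exon bases are shared with Gm49394, a gene model on the same strand.

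Igf2r, the receptor that carries IGF2 to lysosomes, rose with H19. Igf2r (ENSMUSG00000023830.14, chromosome 17, 12682406 to 12769664, minus strand) is expressed from the maternal copy. Igf2r read 134, 78.4 and 70.9 CPM in LacZ- FLK1+ cells and 75.4, 50.3 and 44.1 CPM in LacZ+ FLK1+ cells. HEI levels of Igf2r were 531, 310.5 and 241 CPM (ENG+FDG-), 323, 366 and 316 CPM (ENG+FDG+) and 552, 257 and 244 CPM (ENG-FDG+). The stages did not overlap, and the rise was 2.25 ± 0.28 (adjusted p = 3.68e-05). Airn, the paternal noncoding RNA whose transcription crosses the start of Igf2r on the other strand, was far less abundant. Airn read 7.57, 5.45 and 9.55 CPM in LacZ- FLK1+ cells and 3.58, 12.6 and 13.7 CPM in LacZ+ FLK1+ cells. HEI levels of Airn were 6.31, 15.4 and 14.8 CPM (ENG+FDG-), 8.98, 16.5 and 14.9 CPM (ENG+FDG+) and 13.7, 11.8 and 9.12 CPM (ENG-FDG+). Its difference of 0.52 ± 0.32 did not pass over all libraries (adjusted p = 0.232) and passed in replicates 2 and 3 alone (0.54 ± 0.14, adjusted p = 0.00138). The strand setting of the counting is not given, so reads of this antisense pair may not be separated. Grb10 (ENSMUSG00000020176.17, chromosome 11, 11930508 to 12038683, minus strand), an adaptor that dampens insulin and IGF receptor signalling, fell. Grb10 read 295, 48.5 and 59.9 CPM in LacZ- FLK1+ cells and 75.3, 14.9 and 18.6 CPM in LacZ+ FLK1+ cells. HEI levels of Grb10 were 4.37, 8.02 and 8.23 CPM (ENG+FDG-), 4.29, 3.33 and 5.46 CPM (ENG+FDG+) and 15.1, 5.39 and 6.82 CPM (ENG-FDG+). FLK1+ levels spanned 14.9 to 295 CPM with replicate 1 highest, and the lowest FLK1+ library (14.9 CPM) lay just under the highest HEI library (15.1 CPM). Grb10 fell by 3.43 ± 0.49 (log2, SE, adjusted p = 0.000118), and by 2.22 ± 0.12 in replicates 2 and 3 alone and 2.77 without replicate 1 of LacZ- cells. Ddc, its neighbour, encodes the decarboxylase that makes dopamine and serotonin. Ddc read 4.77, 4.34 and 4.36 CPM in LacZ- FLK1+ cells and 4.28, 6.2 and 4.31 CPM in LacZ+ FLK1+ cells. HEI levels of Ddc were 19.3, 20.7 and 21.9 CPM (ENG+FDG-), 20.6, 17.05 and 18.5 CPM (ENG+FDG+) and 47.9, 13.1 and 17.5 CPM (ENG-FDG+). Ddc rose without overlap, by 2.198 ± 0.28 (adjusted p = 4.8e-05).

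Plagl1 had the largest rise of the 41 members. Plagl1 (ENSMUSG00000019817.18, chromosome 10, 13060504 to 13131694, plus strand) encodes a zinc finger transcription factor, expressed from the paternal copy, that restrains proliferation. Plagl1 read 5.19, 22.3 and 19.2 CPM in LacZ- FLK1+ cells and 15.8, 18.6 and 36.8 CPM in LacZ+ FLK1+ cells. HEI levels of Plagl1 were 247, 449 and 355 CPM (ENG+FDG-), 171, 737 and 584 CPM (ENG+FDG+) and 116, 165 and 132 CPM (ENG-FDG+). The stages did not overlap, ENG-FDG+ cells were the lowest of the HEI groups in each replicate number, and the difference was 3.91 ± 0.43 (adjusted p = 1.7e-05). Cdkn1c encodes p57, an inhibitor of cyclin-dependent kinases. Cdkn1c read 34.9, 5.81 and 7.14 CPM in LacZ- FLK1+ cells and 11.8, 1.5 and 1.54 CPM in LacZ+ FLK1+ cells. HEI levels of Cdkn1c were 31.4, 14.2 and 8.49 CPM (ENG+FDG-), 20.6, 12.8 and 12.9 CPM (ENG+FDG+) and 29.95, 13.3 and 14.9 CPM (ENG-FDG+). Replicate 1 of LacZ- FLK1+ cells was the highest library of all, while replicates 2 and 3 of LacZ+ cells were the lowest. Over all libraries the difference of 0.97 ± 0.56 did not pass (adjusted p = 0.203). Cdkn1c was called as higher in HEI cells with the block (1.32 ± 0.26, adjusted p = 0.000532), in replicates 2 and 3 alone (2.11 ± 0.18), and without replicate 1 of LacZ- (1.62) or of LacZ+ cells (1.83).

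**Figure D3:**
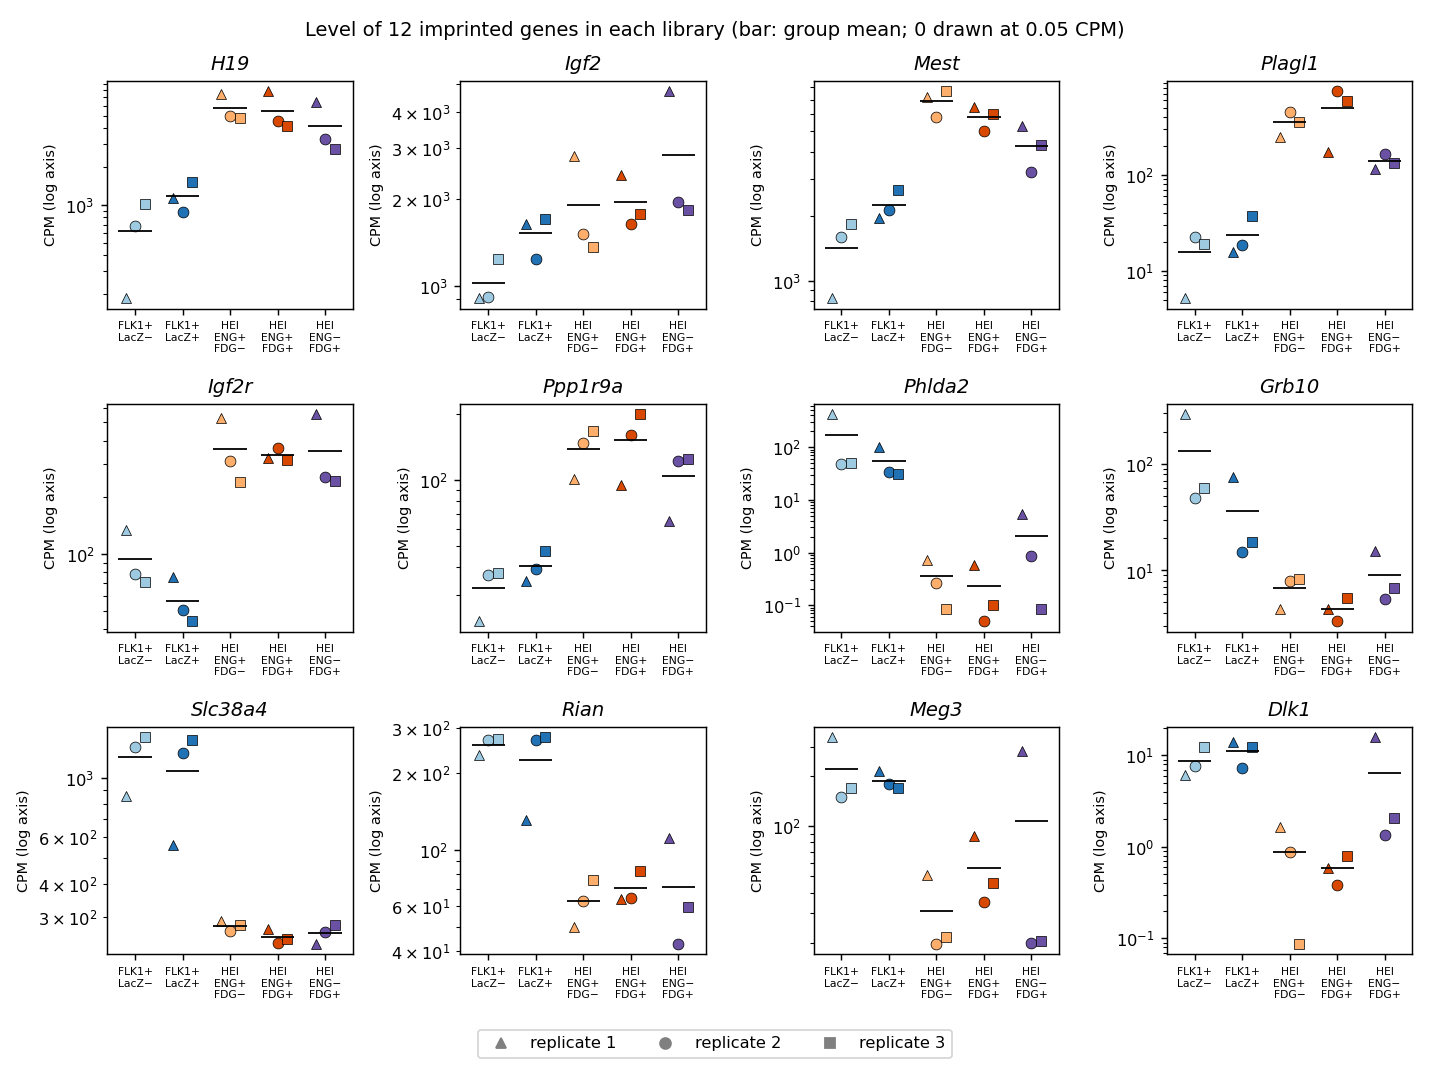
CPM of 12 imprinted genes on log axes (y) in the 5 sorted groups (x), with replicates 1, 2 and 3 as triangle, circle and square and the group mean as a bar. H19, Mest and Plagl1 are higher in every HEI library, and Phlda2, Slc38a4 and Rian are lower in every HEI library.

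Phlda2 had the largest fall. Phlda2 (ENSMUSG00000010760.5, chromosome 7, 143501545 to 143503150, minus strand) encodes a small pleckstrin-homology protein that restrains placental growth and is expressed from the maternal copy. Its raw counts were 6000.0, 521 and 547 in LacZ- and 1562, 338 and 304 in LacZ+ FLK1+ cells. HEI counts were 12, 3.0 and 1.0 (ENG+FDG-), 9.0, 0 and 1.0 (ENG+FDG+) and 63, 9.0 and 1.0 (ENG-FDG+). Phlda2 read 421, 48.1 and 50.7 CPM in LacZ- FLK1+ cells and 99.8, 33.8 and 31.2 CPM in LacZ+ FLK1+ cells. HEI levels of Phlda2 were 0.728, 0.264 and 0.0866 CPM (ENG+FDG-), 0.585, 0 and 0.0994 CPM (ENG+FDG+) and 5.35, 0.866 and 0.0852 CPM (ENG-FDG+). Phlda2 fell by 7.33 ± 0.87 on the log2 scale, 161-fold (adjusted p = 2.82e-05). The size of that fall rests on few HEI counts: with 1 library left out the difference ran from -8.05, without replicate 1 of ENG+FDG+ cells, to -6.43, without replicate 1 of LacZ- cells. The summed level of 5 trophoblast markers was 127 to 471 CPM in FLK1+ and 3.38 to 8.196 CPM in HEI libraries, and 3 of the 3 tested were lower. Eomes and Cdx2, which mesoderm also expresses, are among them, and Eomes alone read 119 to 452 CPM in FLK1+ libraries. Elf5 and Gcm1 were at 0 in LacZ- cells and at most 0.128 CPM in LacZ+ cells. The 6 pluripotency markers summed to 18.4 to 207 CPM in FLK1+ and at most 5.6 CPM in HEI libraries. Their part in the fall of Phlda2 was not tested.

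Elsewhere in the Kcnq1 cluster, Osbpl5, a lipid-transfer protein gene, rose without overlap by 2.31 ± 0.44 (adjusted p = 0.00115). Osbpl5 read 4.56, 2.58 and 2.41 CPM in LacZ- FLK1+ cells and 4.598, 2.0 and 2.26 CPM in LacZ+ FLK1+ cells. HEI levels of Osbpl5 were 22.1, 11.2 and 13.5 CPM (ENG+FDG-), 24.2, 12.6 and 8.74 CPM (ENG+FDG+) and 31.7, 7.69 and 5.96 CPM (ENG-FDG+). Cd81, a tetraspanin, rose by 1.25 ± 0.35 (adjusted p = 0.0129). Cd81 read 275, 151 and 164 CPM in LacZ- FLK1+ cells and 393, 137 and 153 CPM in LacZ+ FLK1+ cells. HEI levels of Cd81 were 1009.8, 423 and 405 CPM (ENG+FDG-), 845, 375 and 354.4 CPM (ENG+FDG+) and 567, 316 and 309 CPM (ENG-FDG+). Kcnq1ot1 is the paternal noncoding RNA of this cluster. Kcnq1ot1 read 143, 252 and 269.9 CPM in LacZ- FLK1+ cells and 84.6, 301 and 282 CPM in LacZ+ FLK1+ cells. HEI levels of Kcnq1ot1 were 48.9, 136 and 178 CPM (ENG+FDG-), 76.2, 172 and 198 CPM (ENG+FDG+) and 104, 221 and 156 CPM (ENG-FDG+). Its difference of -0.64 ± 0.35 did not pass over all libraries (adjusted p = 0.182) and passed with the block (-0.64 ± 0.13, adjusted p = 0.000663). Tssc4, a splicing factor gene, differed more between replicate 1 and the others than between the stages. Tssc4 read 36.2, 6.46 and 6.49 CPM in LacZ- FLK1+ cells and 32.4, 7.1 and 7.29 CPM in LacZ+ FLK1+ cells. HEI levels of Tssc4 were 31.2, 8.64 and 8.31 CPM (ENG+FDG-), 35.8, 9.14 and 7.95 CPM (ENG+FDG+) and 68.9, 9.81 and 8.43 CPM (ENG-FDG+). Replicate 1 lay between 31.2 and 68.9 CPM and the others between 6.46 and 9.81 CPM. Its difference was 0.33 ± 0.67 (adjusted p = 0.736), 0.35 ± 0.14 with the block (adjusted p = 0.0349) and 0.45 ± 0.13 in replicates 2 and 3 alone (adjusted p = 0.0043), where every HEI library lay above every FLK1+ library. Slc22a18, a transporter gene, stayed at or under 3.58 CPM in every library and did not pass.

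All 4 listed members of the Dlk1-Meg3 cluster were called lower in HEI cells over all libraries, against 20.3% of genes tested. Dlk1 encodes a membrane protein related to Notch ligands and is expressed from the paternal copy, whereas Meg3, Rian and Mirg are noncoding RNAs of the maternal copy that host small RNAs. Dlk1 read 6.03, 7.57 and 12.3 CPM in LacZ- FLK1+ cells and 13.9, 7.2 and 12.2 CPM in LacZ+ FLK1+ cells. HEI levels of Dlk1 were 1.64, 0.881 and 0.0866 CPM (ENG+FDG-), 0.585, 0.381 and 0.795 CPM (ENG+FDG+) and 15.8, 1.35 and 2.04 CPM (ENG-FDG+). Dlk1 fell by 2.699 ± 0.57 (log2, adjusted p = 0.00223), and replicate 1 of ENG-FDG+ cells was the highest library of all. Meg3 read 341, 149 and 168 CPM in LacZ- FLK1+ cells and 213, 178 and 169 CPM in LacZ+ FLK1+ cells. HEI levels of Meg3 were 51.3, 19.7 and 21.6 CPM (ENG+FDG-), 87.4, 34.9 and 45.6 CPM (ENG+FDG+) and 280.2, 20.01 and 20.4 CPM (ENG-FDG+). Meg3 (ENSMUSG00000021268.17, chromosome 12, 109541001 to 109571726, plus strand) fell by 1.83 ± 0.53 (adjusted p = 0.016). The same library kept the stages from separating, and without it the difference was -2.61 for Meg3, -3.32 for Dlk1 and -2.86 for Mirg. Rian read 235, 268 and 271 CPM in LacZ- FLK1+ cells and 131, 269 and 276 CPM in LacZ+ FLK1+ cells. HEI levels of Rian were 49.9, 63.2 and 76.4 CPM (ENG+FDG-), 64.3, 64.8 and 82.7 CPM (ENG+FDG+) and 112, 42.7 and 59.8 CPM (ENG-FDG+). Rian fell without overlap, by 1.82 ± 0.22 (adjusted p = 3.88e-05). Mirg read 27.9, 5.45 and 8.53 CPM in LacZ- FLK1+ cells and 12.8, 7.3 and 6.16 CPM in LacZ+ FLK1+ cells. HEI levels of Mirg were 2.55, 0.969 and 0.433 CPM (ENG+FDG-), 3.32, 1.14 and 1.69 CPM (ENG+FDG+) and 11.4, 1.25 and 1.11 CPM (ENG-FDG+). Mirg fell by 2.24 ± 0.59 (adjusted p = 0.00862) and was higher in replicate 1 of every group. In replicate 1 of ENG-FDG+ cells, the summed level of 8 smooth muscle and mesenchyme markers was 5102 CPM against 352 and 772 CPM in replicates 2 and 3. Its part in the levels of Dlk1, Meg3 and Mirg there was not tested.

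Of the paternally expressed genes with high counts, Mest rose, and Peg3 and Peg10 did not pass over all libraries. Mest (ENSMUSG00000051855.15, chromosome 6, 30723547 to 30748465, plus strand) encodes a member of the alpha/beta hydrolase family, named for its expression in mesoderm. Mest read 828, 1606 and 1850.3 CPM in LacZ- FLK1+ cells and 1964, 2138 and 2653 CPM in LacZ+ FLK1+ cells. HEI levels of Mest were 7195, 5827 and 7669 CPM (ENG+FDG-), 6483, 5018 and 6027 CPM (ENG+FDG+) and 5265, 3228 and 4326 CPM (ENG-FDG+). Mest rose without overlap, by 1.63 ± 0.22 (adjusted p = 7.09e-05). Peg3 encodes a large zinc finger protein. Peg3 read 2506, 4189.6 and 4174 CPM in LacZ- FLK1+ cells and 1947, 4537 and 4419 CPM in LacZ+ FLK1+ cells. HEI levels of Peg3 were 3600.1, 3779.7 and 4271 CPM (ENG+FDG-), 3321, 4266 and 4351 CPM (ENG+FDG+) and 2359, 1931 and 2034 CPM (ENG-FDG+). ENG-FDG+ cells and replicate 1 of FLK1+ cells had the lowest levels, and the stage difference was -0.18 ± 0.21 (adjusted p = 0.542). Peg3 was called as lower in HEI cells in replicates 2 and 3 alone (-0.32 ± 0.04, adjusted p = 1.37e-06) and not with the block (-0.13 ± 0.14, adjusted p = 0.419). Usp29, read from the shared start region on the other strand, was less abundant. Usp29 read 21.4, 36.5 and 32.7 CPM in LacZ- FLK1+ cells and 13.9, 35.5 and 37.4 CPM in LacZ+ FLK1+ cells. HEI levels of Usp29 were 18.6, 33.9 and 33.3 CPM (ENG+FDG-), 16.5, 33.1 and 25.7 CPM (ENG+FDG+) and 15.02, 18.8 and 18.1 CPM (ENG-FDG+). Its difference of -0.35 ± 0.25 did not pass (adjusted p = 0.309) and passed as lower with the block (-0.31 ± 0.12, adjusted p = 0.0336). Zim1, a zinc finger gene of the same cluster, is expressed from the maternal copy. Zim1 read 19.6, 2.31 and 2.87 CPM in LacZ- FLK1+ cells and 2.55, 0.4 and 1.13 CPM in LacZ+ FLK1+ cells. HEI levels of Zim1 were 2.73, 2.47 and 2.25 CPM (ENG+FDG-), 1.82, 2.19 and 2.78 CPM (ENG+FDG+) and 2.12, 1.92 and 2.13 CPM (ENG-FDG+). Replicate 1 of LacZ- cells stood above every other library, and the sign of its stage difference (-0.59 ± 0.48) turned in replicates 2 and 3 alone (0.79 ± 0.29, adjusted p = 0.0179).

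The Peg10 cluster split by gene. Peg10 read 3472, 8067 and 8259.6 CPM in LacZ- FLK1+ cells and 3852, 8332 and 8799.8 CPM in LacZ+ FLK1+ cells. HEI levels of Peg10 were 8397, 10963 and 13549.7 CPM (ENG+FDG-), 7641, 10191 and 13318 CPM (ENG+FDG+) and 4780.4, 5876 and 5831 CPM (ENG-FDG+). Peg10 differed by 0.33 ± 0.26 (adjusted p = 0.355) and passed with the block (0.401 ± 0.11, adjusted p = 0.00678). That difference averages HEI groups that diverged. In replicates 2 and 3, ENG+ libraries lay above every FLK1+ library and ENG-FDG+ libraries below every one. In replicate 1 all HEI libraries lay above the FLK1+ libraries. Sgce encodes a sarcoglycan, shares the start region of Peg10 on the other strand and is also expressed from the paternal copy. Sgce read 21.03, 69.96 and 72.6 CPM in LacZ- FLK1+ cells and 21.8, 70.8 and 76.6 CPM in LacZ+ FLK1+ cells. HEI levels of Sgce were 87.5, 125 and 143 CPM (ENG+FDG-), 87.3, 115 and 131 CPM (ENG+FDG+) and 69.9, 90.9 and 132 CPM (ENG-FDG+). Sgce rose by 0.97 ± 0.33 (adjusted p = 0.0336), a call that was lost in 7 of 15 fits that left out 1 library (0.78 to 0.96). Those libraries were replicate 1 of both FLK1+ groups, replicates 2 and 3 of both ENG+ groups and replicate 3 of ENG-FDG+ cells. Ppp1r9a, a regulator of protein phosphatase, rose without overlap, by 1.84 ± 0.23 (adjusted p = 4.73e-05). Ppp1r9a read 22.7, 36.8 and 37.5 CPM in LacZ- FLK1+ cells and 34.5, 39.5 and 47.5 CPM in LacZ+ FLK1+ cells. HEI levels of Ppp1r9a were 101, 148 and 168 CPM (ENG+FDG-), 95.4, 160 and 199.8 CPM (ENG+FDG+) and 65.1, 123 and 124 CPM (ENG-FDG+). Asb4, a ubiquitin ligase adaptor known from vascular differentiation, fell by 1.5 ± 0.27 (adjusted p = 0.000757). Asb4 read 83.2, 188 and 124 CPM in LacZ- FLK1+ cells and 38.4, 172 and 106 CPM in LacZ+ FLK1+ cells. HEI levels of Asb4 were 63.1, 46.4 and 42.3 CPM (ENG+FDG-), 56.5, 54.2 and 52.9 CPM (ENG+FDG+) and 24.5, 29.7 and 24.5 CPM (ENG-FDG+). The lowest Asb4 level in FLK1+ cells, replicate 1 of LacZ+ cells, lay within the HEI range. Calcr, the calcitonin receptor gene, fell by 3.27 ± 0.48 (adjusted p = 0.000135) at counts of at most 32 in any library, and the difference was -3.902 without replicate 1 of ENG-FDG+ cells. Calcr read 0.2103, 0.923 and 0.927 CPM in LacZ- FLK1+ cells and 2.04, 1.4 and 1.54 CPM in LacZ+ FLK1+ cells. HEI levels of Calcr were 0.121, 0.176 and 0.2598 CPM (ENG+FDG-), 0.1301, 0.1905 and 0.199 CPM (ENG+FDG+) and 0.0849, 0 and 0 CPM (ENG-FDG+).

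Among the other members, Slc38a4, an amino acid transporter expressed from the paternal copy, fell without overlap by 2.11 ± 0.197 (adjusted p = 3.95e-06). Slc38a4 read 855, 1316 and 1429.8 CPM in LacZ- FLK1+ cells and 559, 1248 and 1391 CPM in LacZ+ FLK1+ cells. HEI levels of Slc38a4 were 288, 265 and 279 CPM (ENG+FDG-), 270.1, 239.5 and 247 CPM (ENG+FDG+) and 236, 264 and 278 CPM (ENG-FDG+). Its HEI levels stayed within 236 to 288 CPM in all 9 libraries. Ndn, a MAGE family gene, rose without overlap by 0.93 ± 0.21 (adjusted p = 0.0033). Ndn read 34.7, 36.6 and 39.02 CPM in LacZ- FLK1+ cells and 45.7, 38.1 and 46.7 CPM in LacZ+ FLK1+ cells. HEI levels of Ndn were 129.6, 68.1 and 67.4 CPM (ENG+FDG-), 106, 62.2 and 60.5 CPM (ENG+FDG+) and 86.97, 58.1 and 50.7 CPM (ENG-FDG+). Trappc9, a trafficking gene, rose by 1.38 ± 0.41 (adjusted p = 0.0173). Trappc9 read 14.4, 6.65 and 8.43 CPM in LacZ- FLK1+ cells and 20.9, 9.2 and 7.29 CPM in LacZ+ FLK1+ cells. HEI levels of Trappc9 were 51.99, 17.6 and 16.37 CPM (ENG+FDG-), 51.1, 21.2 and 17.8 CPM (ENG+FDG+) and 46.4, 18.9 and 19.6 CPM (ENG-FDG+). Replicate 1 of LacZ+ cells lay within the range of replicates 2 and 3 of HEI cells.

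A further 8 members were not called over all libraries and were called with the block, in replicates 2 and 3 alone, or both. Magel2, a MAGE family gene, differed by -1.01 ± 0.199 with the block (adjusted p = 0.000465). Magel2 read 14.4, 6.92 and 4.91 CPM in LacZ- FLK1+ cells and 24.97, 5.4 and 5.23 CPM in LacZ+ FLK1+ cells. HEI levels of Magel2 were 12.2, 2.47 and 3.12 CPM (ENG+FDG-), 11.8, 2.48 and 2.88 CPM (ENG+FDG+) and 5.6, 3.17 and 2.64 CPM (ENG-FDG+). Nnat, a proteolipid gene, differed by -1.4 ± 0.17 in replicates 2 and 3 alone (adjusted p = 3.67e-07). Nnat read 181, 15.2 and 9.73 CPM in LacZ- FLK1+ cells and 126, 14.4 and 9.75 CPM in LacZ+ FLK1+ cells. HEI levels of Nnat were 12.3, 3.61 and 4.24 CPM (ENG+FDG-), 9.82, 4.0 and 3.18 CPM (ENG+FDG+) and 687, 5.001 and 6.56 CPM (ENG-FDG+). The 687 CPM in replicate 1 of ENG-FDG+ cells set its value over all libraries, -1.497 ± 1.02, which became -3.22 without that library. Inpp5f, a phosphoinositide phosphatase gene, differed by 0.32 ± 0.07 with the block (adjusted p = 0.00138). Inpp5f read 38.6, 56.6 and 53.2 CPM in LacZ- FLK1+ cells and 32.4, 52.6 and 58.8 CPM in LacZ+ FLK1+ cells. HEI levels of Inpp5f were 43.2, 77.8 and 78.4 CPM (ENG+FDG-), 40.8, 75.6 and 71.3 CPM (ENG+FDG+) and 40.05, 61.9 and 66.8 CPM (ENG-FDG+). Zrsr1, a splicing factor gene, differed by 0.38 ± 0.14 with the block (adjusted p = 0.0292), and its exons lie inside Commd1 on the other strand. Zrsr1 read 12.97, 28.4 and 29.8 CPM in LacZ- FLK1+ cells and 19.5, 23.7 and 33.97 CPM in LacZ+ FLK1+ cells. HEI levels of Zrsr1 were 25, 41.1 and 37.6 CPM (ENG+FDG-), 27.1, 40.2 and 37.5 CPM (ENG+FDG+) and 11.8, 38.2 and 32.9 CPM (ENG-FDG+). Gnas, the stimulatory G protein gene, varied little. Gnas read 1151, 1206 and 1185 CPM in LacZ- FLK1+ cells and 1176, 1146 and 1131 CPM in LacZ+ FLK1+ cells. HEI levels of Gnas were 1713, 1293 and 1341 CPM (ENG+FDG-), 1627, 1246 and 1159 CPM (ENG+FDG+) and 1279.7, 1137 and 1244 CPM (ENG-FDG+). Its block difference was 0.19 ± 0.07 (adjusted p = 0.0379). Impact, a regulator of translation, differed by 0.27 ± 0.09 with the block (adjusted p = 0.0132). Impact read 157, 419 and 436 CPM in LacZ- FLK1+ cells and 208, 429 and 501 CPM in LacZ+ FLK1+ cells. HEI levels of Impact were 264, 506 and 455 CPM (ENG+FDG-), 260.1, 466 and 441 CPM (ENG+FDG+) and 288, 506 and 536 CPM (ENG-FDG+). Commd1, a trafficking gene, differed by -0.19 ± 0.07 in replicates 2 and 3 alone (adjusted p = 0.0263). Commd1 read 51.4, 38.5 and 44.1 CPM in LacZ- FLK1+ cells and 39.1, 39.2 and 41.3 CPM in LacZ+ FLK1+ cells. HEI levels of Commd1 were 38.5, 34.5 and 33.3 CPM (ENG+FDG-), 49.5, 31.1 and 27.5 CPM (ENG+FDG+) and 40.4, 40.01 and 34.7 CPM (ENG-FDG+). Blcap, next to Nnat, was called in the same fit (0.35 ± 0.14, adjusted p = 0.0357). Blcap read 11.9, 8.49 and 12.8 CPM in LacZ- FLK1+ cells and 14.1, 10.9 and 10.3 CPM in LacZ+ FLK1+ cells. HEI levels of Blcap were 10.1, 12.7 and 7.79 CPM (ENG+FDG-), 14.5, 15.05 and 16.2 CPM (ENG+FDG+) and 21.7, 13.2 and 12.1 CPM (ENG-FDG+). Ube3a, Peg12 and Nap1l5 were not called in any of these 3 fits, at 40.7 to 245 CPM, 3.01 to 10.6 CPM and 0.455 to 3.16 CPM.

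Ratios of neighbouring genes within a library need no scaling between libraries. Here 5 such ratios were computed per kilobase of exon after the levels had been seen, so their tests are descriptive. The H19 to Igf2 ratio was 0.474, 1.73 and 1.91 in LacZ- and 1.62, 1.65 and 2.06 in LacZ+ FLK1+ cells. It was 6.15, 7.703 and 8.23 in ENG+FDG-, 7.52, 6.54 and 5.46 in ENG+FDG+ and 3.17, 3.95 and 3.52 in ENG-FDG+ HEI cells. No HEI library overlapped a FLK1+ library, within replicate 1 or within replicates 2 and 3, and ENG-FDG+ libraries lay below every ENG+ library. The mean log2 ratio differed by 1.94 (2.46 ± 0.52 SD in 9 HEI against 0.52 ± 0.79 in 6 FLK1+ libraries, exact two-sided permutation p = 0.0003996, the smallest these groups allow, adjusted p = 0.000999 over 5 ratios). The Peg10 to Sgce ratio was 181 to 281 in FLK1+ cells, 139 to 162 in ENG+ HEI cells and 70.2 to 109 in ENG-FDG+ HEI cells. Its mean log2 difference was -0.73 (exact permutation p = 0.0003996, adjusted p = 0.000999). Igf2r to Airn rose by 1.65 with overlapping ranges (exact permutation p = 0.0032, adjusted p = 0.00533). Kcnq1ot1 to Cdkn1c differed by -2.11 (exact permutation, adjusted p = 0.0569) and Meg3 to Rian by -0.41 (exact permutation, adjusted p = 0.422), neither past 0.05. With the stage labels permuted only within each replicate number, a test added after the data were seen, Kcnq1ot1 to Cdkn1c passed (exact permutation p = 0.002, the smallest that 1000 arrangements allow, adjusted p = 0.0025), its FLK1+ ratios lying above its HEI ratios in each of the 3 replicate numbers. H19 to Igf2, Igf2r to Airn and Peg10 to Sgce had the same p in that test, and Meg3 to Rian did not pass (exact permutation, adjusted p = 0.096).

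**Figure D4:**
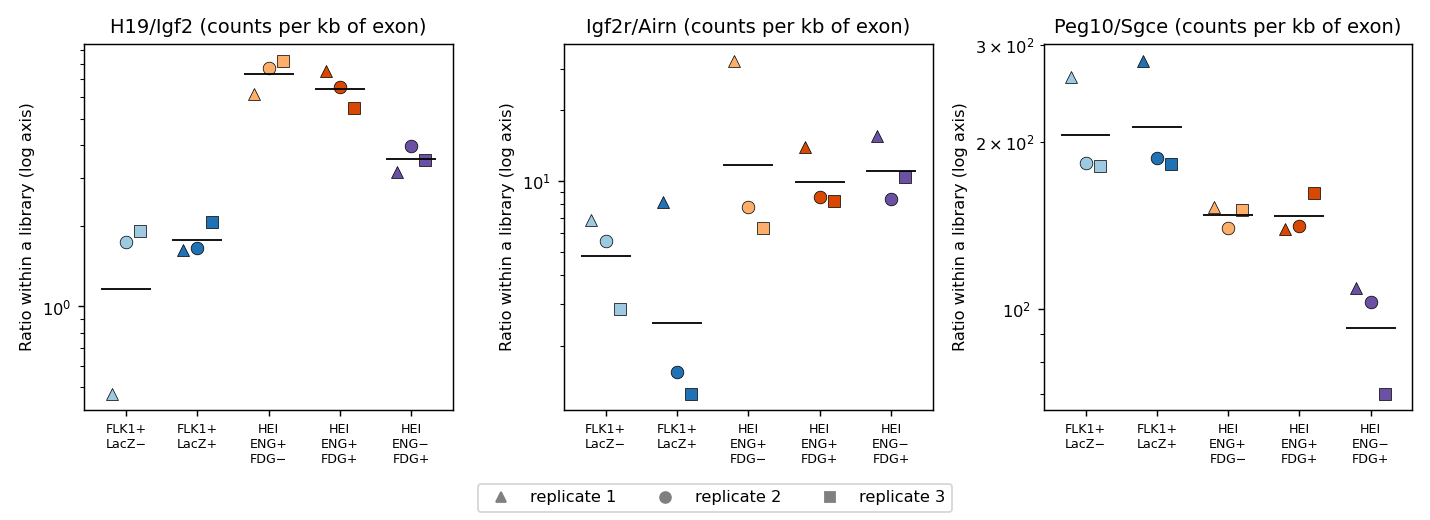
Ratio of counts per kilobase of exon within each library (y, log axes) for H19 to Igf2, Igf2r to Airn and Peg10 to Sgce in the 5 groups (x), replicates 1 to 3 as triangle, circle and square, bars at the geometric mean. H19 to Igf2 is 0.474 to 2.06 in FLK1+ libraries and 3.17 to 8.23 in HEI libraries.

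LacZ activity within FLK1+ cells, which separates cells with an active promoter and 3-enhancer construct, moved no member past the threshold over all libraries: edgeR called 0 of 41 (0.0% of all genes), with 2 members at an unadjusted p under 0.05, and DESeq2 called 0 (0.0367% of all genes). The block also gave 0 (0.0% of all genes). In replicates 2 and 3 alone, where the spread was smaller, 2 of 40 members were called, both lower in LacZ+ cells (background 0.0601%, with 0.0225% lower and 0.0375% higher). Grb10 differed by -1.71 ± 0.17 (adjusted p = 5.04e-05), with pair differences of -1.97, -1.69 and -1.68 in replicates 1, 2 and 3. Cdkn1c differed by -2.09 ± 0.32 (adjusted p = 0.00851), with pair differences of -1.56, -1.84 and -2.098. Both genes were lower in LacZ+ cells in 3 of 3 pairs. Zim1 had the largest difference over all libraries (-2.57 ± 0.79, unadjusted p = 0.0062 and adjusted p = 1 in edgeR's test).

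FDG turnover within ENG+ HEI cells also moved no member over all libraries: edgeR called 0 of 41 (0.0% of all genes), with 0 at an unadjusted p under 0.05, and DESeq2 called 0 (0.0% of all genes). The block gave 0 (0.0% of all genes). In replicates 2 and 3 alone 1 of 40 members, Meg3, was called as higher in FDG+ cells (background 0.563%, with 0.518% higher and 0.045% lower), by 0.99 ± 0.13 (adjusted p = 0.00103). Its pair differences were 0.77, 0.83 and 1.07, higher in 3 of 3 pairs.

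Cells with surface ENG held more Plagl1, Peg3, Peg10 and Ppp1r9a than cells without it in the fits that take the replicate number into account. Over all libraries edgeR called 0 of 41 members between ENG+FDG+ and ENG-FDG+ HEI cells (0.278% of all genes, with 0.139% in each direction), with 6 at an unadjusted p under 0.05, and DESeq2 called 2 (2.78% of all genes). Those were Plagl1 as higher (1.88, adjusted p = 0.0494) and Dlk1 as lower in ENG+FDG+ cells (-3.43, adjusted p = 0.00894). The size for Dlk1 depended largely on replicate 1 of ENG-FDG+ cells, with 186 counts against 14 and 24 in replicates 2 and 3. ENG+FDG+ libraries held 9, 4 and 8 Dlk1 counts. With 1 library left out, edgeR's difference for Dlk1 ran from -3.90 to -1.51. With the block 6 were called (background 10.8%, with 5.1% higher and 5.75% lower). Plagl1 (1.64 ± 0.34), Peg3 (0.88 ± 0.22), Peg10 (0.87 ± 0.18) and Ppp1r9a (0.54 ± 0.13) were higher in ENG+FDG+ cells. Each of those 4 was higher in 3 of 3 pairs. Dlk1 (-3.103 ± 0.85) and Phlda2 (-3.01 ± 0.71) were lower, with Phlda2 at no more than 63 counts in any of these libraries and lower in 2 of 3 pairs.
In replicates 2 and 3 alone 12 of 40 members were called, and all 12 were higher in ENG+FDG+ cells (background 29.3%, and 14.7% higher). Beside Plagl1 (2.21 ± 0.29), Peg3 (1.18 ± 0.07), Peg10 (1.07 ± 0.14) and Ppp1r9a (0.602 ± 0.11), they were Meg3, Rian, Usp29, Osbpl5, Airn, Igf2r, Cd81 and Inpp5f. Replicate 1 went the other way for Meg3 (-1.68 against 0.8 and 1.15), Rian (-0.795 against 0.599 and 0.47), Igf2r, Airn and Osbpl5. Nnat stood at -5.35 ± 1.92 over all libraries and -0.63 ± 0.3 in replicates 2 and 3, neither of which passed. Runx1, a transcription factor of blood formation, differed by -3.13 ± 0.33 (adjusted p = 0.00384, edgeR, all libraries) and was lower in ENG+FDG+ cells. The summed mesenchyme markers were 125 to 573 CPM in ENG+FDG+ and 352 to 5102 CPM in ENG-FDG+ libraries, and their part in these differences was not tested.

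**Figure D5:**
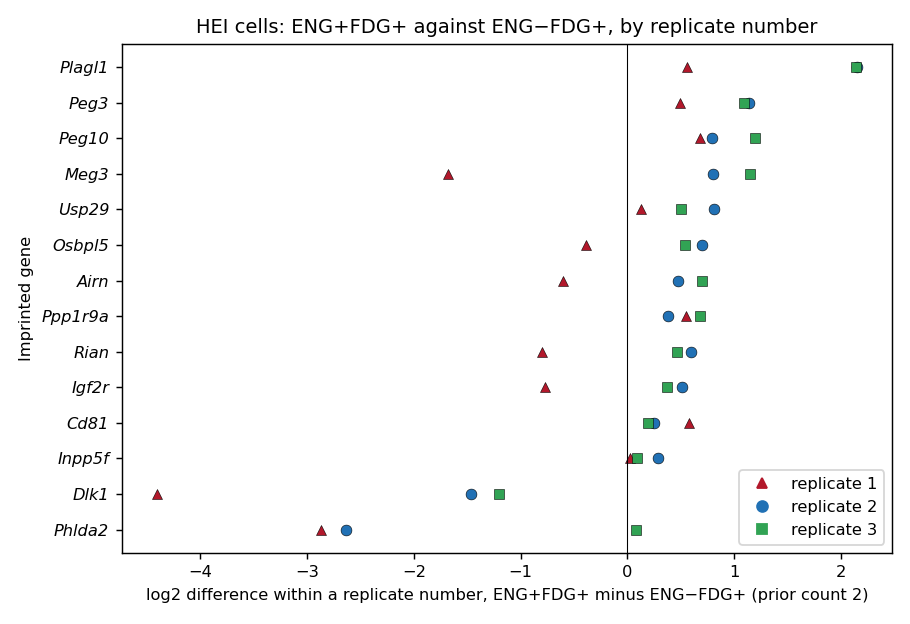
Log2 difference between ENG+FDG+ and ENG-FDG+ HEI cells within each replicate number (x axis; triangle 1, circle 2, square 3) for the 14 imprinted genes called with the replicate block or in replicates 2 and 3 alone (y axis). Replicates 2 and 3 lie to the right of 0 for every gene but Dlk1 and Phlda2, while replicate 1 lies to the left for Meg3, Rian, Igf2r, Airn and Osbpl5.

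The comparison of ENG-FDG+ with ENG+FDG- HEI cells shares its ENG-FDG+ libraries with the one above. These include the replicate 1 library with 186 Dlk1 counts. edgeR called 0 of 41 members (0.351% of all genes, 0.154% higher and 0.198% lower); 7 members stood at an unadjusted p under 0.05, and DESeq2 called 1 (2.91% of all genes), Dlk1 as higher in ENG-FDG+ cells. With the block 7 were called (background 11.1%, with 5.44% higher and 5.65% lower): Phlda2 as higher (2.41 ± 0.65), and Plagl1 (-1.29 ± 0.33), Peg10 (-0.96 ± 0.18), Peg3 (-0.85 ± 0.22), Usp29 (-0.67 ± 0.19), Cd81 (-0.55 ± 0.13) and Ppp1r9a (-0.44 ± 0.13) as lower in ENG-FDG+ cells. Those 6 were lower in 3 of 3 pairs. In replicates 2 and 3 alone 13 of 40 were called, all lower in ENG-FDG+ cells (background 27.1%, and 13.7% lower). Mest (-0.87 ± 0.23), Osbpl5, Airn, Ddc, Ndn, Inpp5f and Gnas joined the 6. Replicate 1 went the other way for Osbpl5 (0.52), Airn (1.103) and Ddc (1.303). Asb4 read 42.3 to 63.1 CPM in all 6 ENG+ and 24.5 to 29.7 CPM in all 3 ENG-FDG+ libraries, and did not pass in edgeR's test over all libraries (adjusted p = 0.509 against ENG+FDG- and 0.432 against ENG+FDG+ cells). A joint test for any difference among the 5 groups called 15 members over all libraries (23.2% of all genes), 30 with the block (58.4%), 35 of 40 in replicates 2 and 3 alone (72.6%) and 18 with DESeq2 (30.2%). The 15 were Asb4, Calcr, Ddc, Dlk1, Grb10, H19, Igf2r, Mest, Ndn, Osbpl5, Phlda2, Plagl1, Ppp1r9a, Rian and Slc38a4, each also called between the stages.

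Other genes of the same biology were read from lists that hold no member. Of 49 further imprinted genes, 35 were tested and 21 (60.0%) differed between HEI and FLK1+ cells (14 higher, 7 lower), with a median log2 difference of 0.41. Over all genes tested 37.3% were called, 17.0% higher and 20.3% lower. With the block 25 of the 35 were called, against 66.2% of all genes. Kcnk9, a potassium channel gene (6.23 ± 0.85), Tspan32, a tetraspanin gene near Cd81 (3.77 ± 0.37), and Ampd3, an AMP deaminase gene (3.61 ± 0.31), were higher. Smoc1, a secreted calcium-binding protein gene (-4.103 ± 0.67), was lower. Kcnk9 and Tspan32 read at most 0.511 and 0.556 CPM in FLK1+ libraries, and Smoc1 at most 0.667 CPM in HEI libraries. The sizes for these genes rest on low counts. Of 28 genes that set, keep or read imprints, 26 were tested, 2 were higher and 7 lower (34.6% called, near the 37.3% of all genes), with a median of -0.48, and 19 were called with the block (73.1%, against 66.2%). The demethylating dioxygenases Tet2 (1.83 ± 0.21) and Tet3 (1.41 ± 0.16) were higher, and the de novo DNA methyltransferase Dnmt3b (-1.76 ± 0.21) and Trim28 (-0.92 ± 0.21) were lower. Their families did not move as one. Tet1 read 77.8 to 206 CPM in HEI and 156 to 267 CPM in FLK1+ libraries. Dnmt3a, also a de novo methyltransferase, read 162 to 206 CPM in HEI and 142 to 230 CPM in FLK1+ libraries. Of 20 other genes of the IGF and insulin axis, 18 were tested, 3 were higher and 5 lower (44.4% called, near the 37.3% of all genes), with a median of -0.26, and 14 were called with the block (77.8%, against 66.2%). Igf1, a second IGF ligand, was higher (5.04 ± 0.47) and the insulin receptor gene Insr was higher (0.66 ± 0.16). The receptor substrate Irs1 (-2.58 ± 0.22) and the binding protein Igfbp5 (-1.77 ± 0.38) were lower. Igfbp5 was clearly low only in ENG+ HEI libraries (1.06 to 3.08 CPM). ENG-FDG+ libraries read 39.6, 6.06 and 18.0 CPM, overlapping the 9.23 to 28.2 CPM of FLK1+ libraries. Sizes given here with an SE are edgeR's log2 differences over all libraries.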

How the data were processed

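Sorted-cell RNA was amplified (Nugen) before Illumina library construction, per the labels' protocols. The authors deposited raw read counts per gene symbol for 15 libraries, with STAR 2.4.0, HTSeq 0.6.1 and mm10 named in the submitters' processing notes. Sources used here give no annotation, strand setting or filters. Of 24061 lines, 27 that held dates in place of symbols were left out. Counts were tested in 1 fit of all libraries with edgeR 4.0.16 (R 4.3.3; filterByExpr, TMM, robust quasi-likelihood, Benjamini-Hochberg 0.05), checked on simulated data. The biological coefficient of variation was 0.477, 0.199 with the replicate block and 0.0761 in replicates 2 and 3. Deviations of same-numbered libraries correlated at 0.563 to 0.867 (replicate 1), 0.472 to 0.665 (2) and 0.432 to 0.68 (3), so the numbers were taken as pairs. Replicate 2 of one group and 3 of another correlated at 0.429 to 0.636, so the pairing rests on replicate 1. Exon lengths and positions are from GENCODE M21 (GRCm38). DESeq2 1.42.0, other scaling (RLE), other filters, only the groups compared, and each library left out were alternatives. Values are named for members past the threshold in any of the 3 fits and for members of the 5 clusters described by name. Other genes given with a log2 difference are at most 4 per list. The members and lists were chosen with earlier results of these data known.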

Additional observations from a re-analysis of the deposited data

Results flagged for a closer look

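LacZ and FDG effects, which compare reporter-positive with reporter-negative cells at each stage, pointed in opposite directions for 5 members in every same-numbered pair. No share of all genes is given beside this count, and the pairing of libraries rests on replicate 1. Peg10, Sgce, Mest, Ndn and Impact were higher in LacZ+ than in LacZ- FLK1+ cells in 3 of 3 pairs. They were lower in ENG+FDG+ than in ENG+FDG- HEI cells in 3 of 3 pairs. Some pair differences were very small: for Sgce 0.017 (LacZ, replicate 2) and -0.0041 (FDG, replicate 1), and for Impact -0.019 (FDG, replicate 1). The largest was 1.25 for Mest (LacZ, replicate 1). The FDG effect minus the LacZ effect was -0.16 for Peg10, -0.14 for Sgce, -0.896 for Mest, -0.45 for Ndn and -0.24 for Impact (log2). In edgeR's test of this difference between the effects, added after the data were seen, the adjusted p was 1 for each of the 5, so the opposite directions were not past the spread between libraries.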

How the results depend on the processing

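The replicate block, replicates 2 and 3 alone, and DESeq2 moved counts of members called. Percentages in brackets are shares of all genes tested in the same fit. Between LacZ+ and LacZ- FLK1+ cells the count was 0 (0.0%) over all libraries and 2 (0.0601%) in replicates 2 and 3 alone. Between ENG+FDG+ and ENG+FDG- HEI cells it was 0 (0.0%) and 1 (0.563%). Between ENG+FDG+ and ENG-FDG+ cells it was 0 (0.278%), against 6 (10.8%) with the replicate block. There it was 12 (29.3%) in replicates 2 and 3 alone and 2 (2.78%) with DESeq2. Between ENG-FDG+ and ENG+FDG- cells it was 0 (0.351%), against 7 (11.1%), 13 (27.1%) and 1 (2.91%). Between the stages it was 21 (37.3%), against 37 (73.7%) in replicates 2 and 3 alone. For any difference among the groups it was 15 (23.2%), against 30 (58.4%) with the block and 35 (72.6%) in replicates 2 and 3 alone. Leaving out each library gave 20 to 22 calls between the stages, 13 to 17 for any difference and 0 in the other comparisons. The cause of these moves was not tested.

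Directions that reversed belonged to differences that did not pass over all libraries. For ENG+FDG+ against ENG-FDG+ cells, Igf2r turned to 0.067 with the block and 0.51 in replicates 2 and 3, Meg3 to 1.05 in replicates 2 and 3, and Rian to 0.00076 with DESeq2, 0.00094 with RLE, 0.00081 at 5 CPM, 0.0069 without a filter and 0.58 in replicates 2 and 3. For ENG-FDG+ against ENG+FDG- cells, Airn turned to 0.067 with the block and Ddc to -0.51 in replicates 2 and 3. Between the stages Zim1 turned to 0.79 in replicates 2 and 3.

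With 1 library left out, ENG+FDG+ against ENG-FDG+ ranged from -0.50 to 1.16 for Osbpl5, -0.12 to 0.76 for Cd81, -0.27 to 0.43 for Igf2r, -1.42 to 1.48 for Meg3, -0.28 to 0.47 for Rian and -0.026 to 0.39 for Inpp5f. ENG-FDG+ against ENG+FDG- ranged from -1.23 to 0.33 for Osbpl5, -0.39 to 0.13 for Airn and -0.47 to 0.66 for Ddc. The stage difference ranged from -0.18 to 1.01 for Tssc4 and -0.801 to 0.25 for Zim1. Meg3 and Igf2r turned without replicate 1 of ENG-FDG+ cells. The fit with only the groups compared was the full fit for the stages and for any difference. Low counts limit Calcr, Slc22a18 and Nap1l5, and limit Phlda2 and Dlk1 in most HEI libraries.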
